A study of Salmo salar with 6 samples.

Results

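The transcripts described here encode the machinery that moves membrane vesicles through the cell: Rab and Arf/Arl GTPases, sorting nexins, Vps and Chmp proteins, SNAREs and the proteins that regulate membrane fusion, the exocyst, and the clathrin adaptors. They were picked by gene symbol, with no cut on their signal, though earlier results of these data were known when the families were chosen. Each probe was named by looking up its RefSeq accession in a gene table of Atlantic salmon (Salmo salar), and 147 of 42386 probes, standing for 145 of the 25460 genes so named or numbered, had a symbol of these families. Only 8155 probes had a gene symbol at all, and another 17486 carried a locus number in its place, so salmon copies of the same families that are known by a locus number alone were not among the members.

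Head kidney (HK) RNA was measured on 6 one-color arrays, 3 for fish fed a control diet and 3 for fish fed the same basal diet with 0.15% AQUOLIVE®, an extract of olive fruit rich in polyphenols and triterpenic acids. Fish of both groups were unvaccinated parrs reared through smoltification and sampled after 133 days of feeding. Each array held 1 pool of RNA from 6 fish, 18 fish per diet in all, so the variation between single fish cannot be seen. The methods describe every pool as drawn from all replicate tanks of its diet, so the pools of a diet shared their tanks. The pool is the replicate in every SD, SE and p-value below. These values do not measure the variation between tanks, the units to which the diets were given. The comparison asks which trafficking transcripts of the HK differed with the supplemented diet.

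Rab and Arf GTPases switch between an inactive and an active form, and in the active form recruit the effectors that form, carry, tether and fuse a vesicle at one particular membrane. SNAREs on a vesicle and on its target zip together to fuse the membranes, while retromer, retriever, ESCRT and the clathrin adaptors choose which cargo of an endosome is recycled, kept or sent to the lysosome. The HK is the main blood-forming organ of teleosts and also holds the interrenal and chromaffin cells, and leukocytes use this machinery to take up particles and to release granules.

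Of the 147 probes, 115 exceeded background clearly on 3 or more of the 6 arrays and were tested, which is 78.2% against 60.9% of all probes. Each of the 115 stood for a different gene, and 90 probes were above background on all 6 arrays. Among the 32 probes that did not pass, 13 were above background on no array. The 32 included rab20, rab23, rab32b, rab36, the neuronal Rabs rab3b and rab3c, the retromer subunit vps26a, the fusion factor unc13a and 5 synaptotagmins (syt13, syt15, syt16, syt6a and syt9b). A gene that passed the filter only through the diet in which it was bright had to differ, and rab9a was the only member of that kind.

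No member differed between the diets at an adjusted p under 0.05 in limma, where 0.0155% of all 25826 probes tested did. The smallest adjusted p of a member was 0.0993, that of rab9a, and the next was 0.129, that of vps26c. At an unadjusted p under 0.05 there were 17 members, or 14.8%, beside 18.1% of all probes and 14.2% of the other tested probes with a gene symbol. None passed after Benjamini-Hochberg adjustment of the methods' t-test. The nominal threshold used below is an unadjusted p under 0.05 in limma together with a log2 fold change (log2 FC) of at least 0.8 in size, and 5 members passed it with AQUOLIVE® above control (4.35%, beside 7.74% of all probes). Another 4 passed it with AQUOLIVE® below control (3.48%, beside 6.29%). With the deposited log2 values in place of the processed signal the split was 5 higher and 1 lower (7.34% and 1.17% of all probes), and with normexp background correction 2 and 1 (3.75% and 0.887%). Genes past the threshold are called higher or lower in what follows, and none of these calls held after adjustment over all probes. The 5 higher genes were rab9a, which the filter let through only by its AQUOLIVE® arrays and which supports nothing about the group, syt5b, rabepk, arl3b and vps26c, and the 4 lower genes were rab26, exoc7, rab3gap1 and exoc3l2a.

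The group as a whole was not shifted to one side. The median log2 FC of the 115 genes was 0.03 and that of all probes was -0.02. The sign was positive for 59 members, or 51.3%, and 43 lay within 0.3 of 0. A log2 FC of at least 1 in size was seen in 10.4% of the members and in 17.6% of all probes. The pools of the 2 diets did not overlap for 19 of the 114 members measured on every array with the AQUOLIVE® pools higher (16.7%, beside 14.7% of all probes) and for 17 with them lower (14.9%, beside 15.0%). The share of members past the nominal threshold, 7.83%, was also below the 9.99% of the 5846 other tested probes with a gene symbol. No test of these shares was made.

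**Figure D1:**
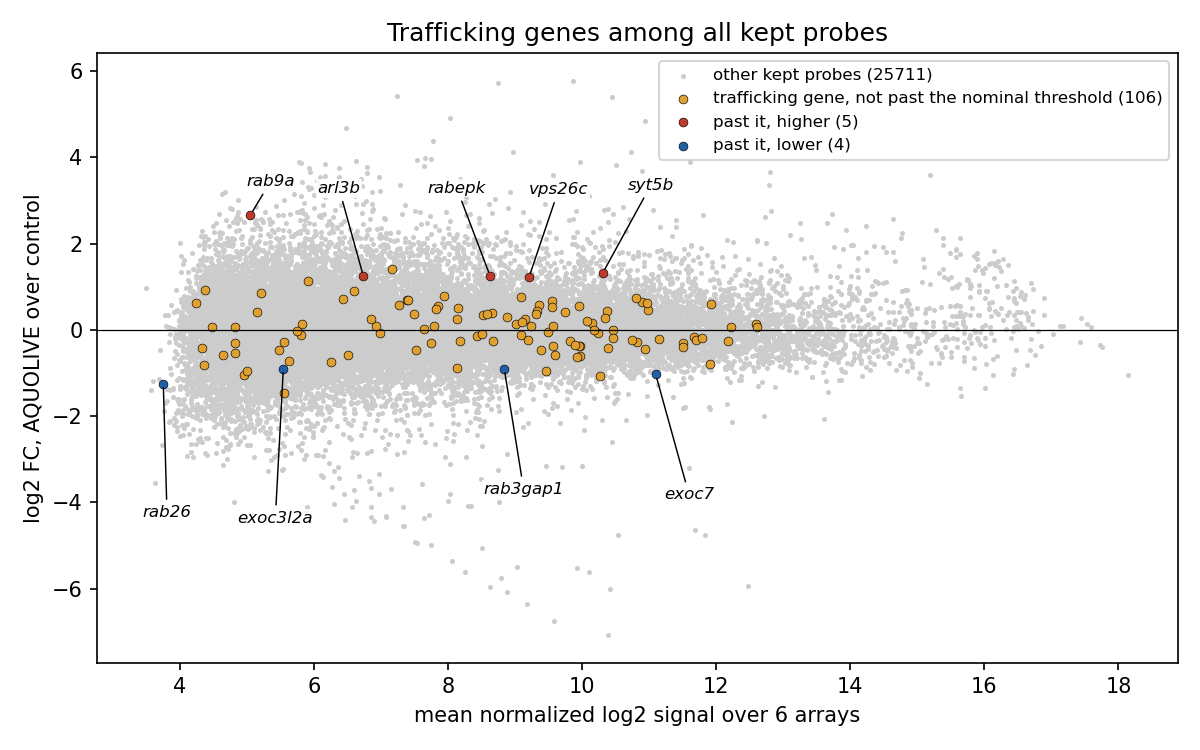
Each point is a probe, with its mean normalized log2 signal over the 6 arrays on the horizontal axis and its log2 FC, AQUOLIVE® over control, on the vertical axis. Gray points are the other tested probes and colored points the 115 trafficking genes, of which the 9 past the nominal threshold are named (red higher, blue lower). The trafficking genes sit inside the spread of all probes, with the lowest fitted log2 FC at arl8 (-1.46) and the highest at rab9a, whose control signal was below background, so that its height in the plot is not a measured size.

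The clearest differences were those of vps26c and syt5b, which were bright on every array and stayed past the nominal threshold under all 17 alternative ways of processing the data. Gene vps26c encodes a subunit of retriever, a complex related to retromer that in mammals returns integrins and other receptors from endosomes to the cell surface. Its normalized log2 signal was 8.61, 8.83 and 8.36 in the 3 control pools and 9.73, 9.67 and 10.05 in the 3 AQUOLIVE® pools. All AQUOLIVE® pools lay above all control pools, with means of 8.60 ± 0.24 in control and 9.82 ± 0.21 in AQUOLIVE® pools (SD, n = 3 pools each). The log2 FC was 1.22 ± 0.23 (SE), with an adjusted p of 0.129, and it ranged from 1.07 to 1.41 over the alternatives.

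Gene syt5b encodes a synaptotagmin, one of a family of membrane proteins that includes the calcium sensors of regulated exocytosis. The control pools gave 9.47, 10.11 and 9.36 and the AQUOLIVE® pools 11.04, 10.76 and 11.10 normalized log2 signal. The groups did not overlap, and the 3 AQUOLIVE® pools were closer to each other than the 3 control pools were. The log2 FC was 1.32 ± 0.28 (SE, adjusted p = 0.136), from 1.15 to 1.57 over the alternatives. Its salmon paralog by name, syt5a, was dim, above background on 1 control and 2 AQUOLIVE® arrays, and its log2 FC of 0.62 did not pass.

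Among the Rab GTPases, 17 of 30 probes were tested, and 1 gene was higher and 1 lower, beside 7.74% and 6.29% of all probes. Gene rab9a, whose product directs transport from late endosomes to the trans-Golgi network in mammals, had the highest fitted value of the 115 members. Its control pools gave 4.44, 3.09 and 3.65 normalized log2 signal and its AQUOLIVE® pools 5.92, 6.47 and 6.76. The probe was not well above background on any control array and was above it on all 3 AQUOLIVE® arrays, so the size has no exact value (adjusted p = 0.0993). Against a floor on each control array, the mean of the AQUOLIVE® pools was 3.93-fold higher. That floor was the signal of rab9a itself or of the dimmest probe well above background there, whichever was brighter. The 3.93-fold is not a firm minimum: under the normexp background correction the log2 FC was 0.73 and the call was lost.

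Gene rabepk encodes a protein known in mammals as p40, an effector that binds Rab9. Its normalized log2 signal was 8.58, 8.26 and 7.18 in the control pools and 9.33, 9.07 and 9.36 in the AQUOLIVE® pools. The diets did not overlap, control pool 3 was the lowest of the 6, and the probe was above background on every array. The log2 FC was 1.25 ± 0.39 (SE, adjusted p = 0.199). It was 0.83 without control pool 3, and the call was lost in 3 of 17 alternatives (normexp, the deposited values and without AQUOLIVE® pool 3). Of the late endosomal and lysosomal GTPases beside rab9a, arl8b gave 0.57 and arl8a 0.35, neither past the threshold. The probe named arl8 gave -1.46 with overlapping pools: control pool 3 stood at 7.36 and the other control pools at 5.91 and 5.60, against 4.09, 4.67 and 5.75 with AQUOLIVE®.

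The Rab of secretory granules rab26 was lower, at 4.24, 4.85 and 4.05 in the control pools and 2.65, 3.36 and 3.39 in the AQUOLIVE® pools. These are signals close to background: 2 of the 3 control arrays and 1 of the 3 AQUOLIVE® arrays had it well above background. The fitted log2 FC was -1.25 ± 0.33 (SE, adjusted p = 0.166), a size that rests on signals not well above background. It was -0.27 and not past the threshold under normexp, and the call was also lost when probes above background on at least 1 array were kept. A related GTPase of granule exocytosis, rab3d, gave a log2 FC of 0.70 that did not pass. The regulators of Rab3 were brighter. Gene rab3gap1, the catalytic subunit of the complex that inactivates Rab3 and in mammals also activates Rab18, was lower, with 9.45, 9.40 and 9.03 against 8.47, 8.60 and 8.09. No AQUOLIVE® pool reached the lowest control pool, and the log2 FC was -0.91 ± 0.24 (SE, adjusted p = 0.172), with the call lost in 2 of 17 alternatives (the deposited values and without AQUOLIVE® pool 3). Gene rab3il1, an exchange factor that in mammals acts on Rab3 and Rab8, gave 8.67, 8.60 and 8.85 in control pools and 9.43, 9.42 and 9.56 in AQUOLIVE® pools. The spread within either diet was small and the pools did not overlap, but its log2 FC of 0.76 ± 0.20 (SE, adjusted p = 0.163) was under the size of 0.8.

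**Figure D2:**
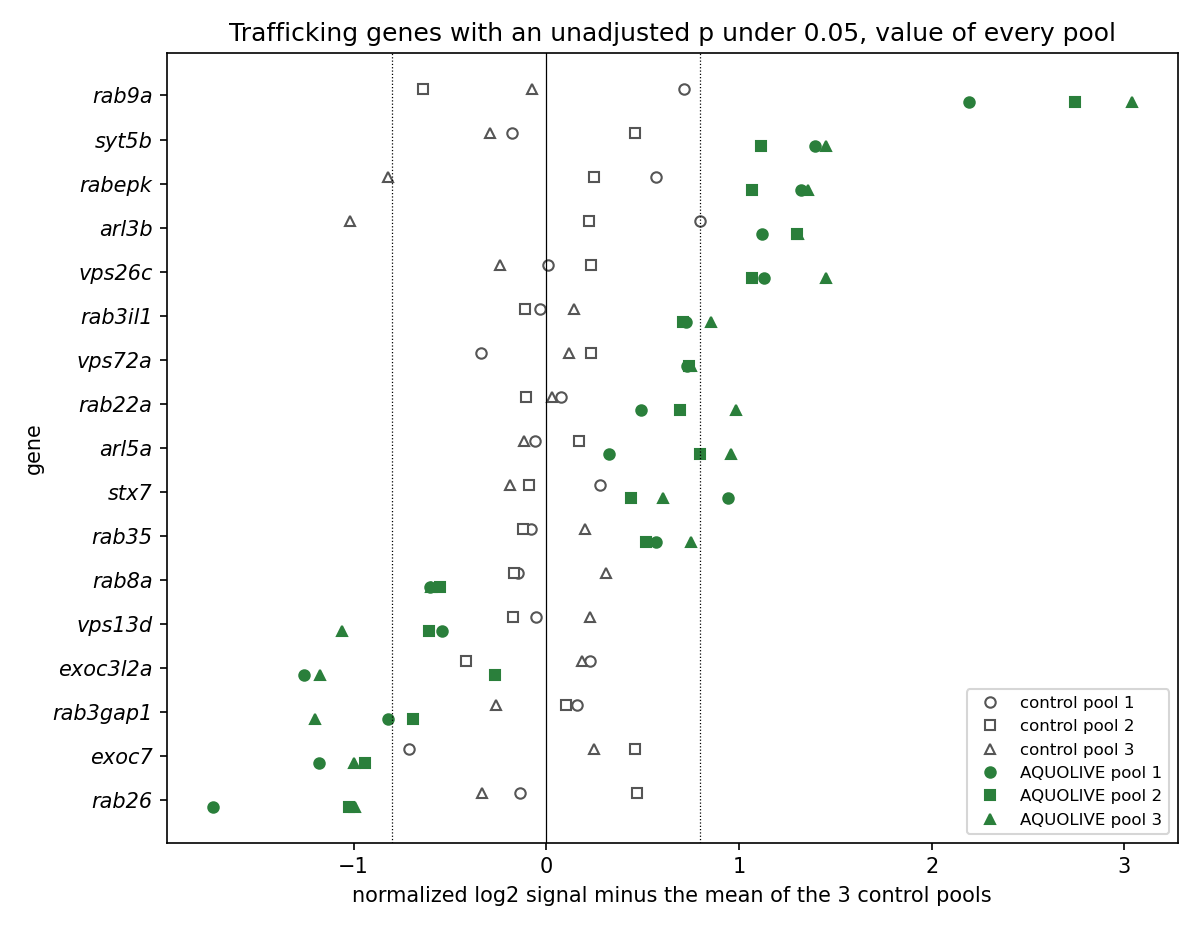
The 17 trafficking genes with an unadjusted p under 0.05 are given one row each, and each symbol is the normalized log2 signal of 1 pool minus the mean of the 3 control pools (open gray, control; filled green, AQUOLIVE®; dotted lines at -0.8 and 0.8). The pools of the 2 diets are apart for every gene but exoc3l2a, and control pool 3 (open triangle) is far below the other controls for rabepk and arl3b.

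The Rabs of early and recycling endosomes gave smaller values. Gene rab22a, which in mammals acts on early endosomes and recycling, gave 6.14, 5.96 and 6.10 in control pools and 6.56, 6.76 and 7.05 in AQUOLIVE® pools. Its pools did not overlap, and its log2 FC of 0.72 ± 0.22 (SE, adjusted p = 0.192) was under 0.8 in size. It passed the threshold in 5 of 17 alternatives, but was 0.14 under normexp and 0.52 with the deposited values. Gene rab35, of fast recycling to the plasma membrane, gave a log2 FC of 0.62, and rab8a, of exocytic transport and the cilium, gave -0.58. Both had pools that did not overlap, and under normexp they gave 0.40 and -0.22. The early endosome Rab rab5a gave 0.13, with control pools from 8.71 to 9.16 and AQUOLIVE® pools from 9.05 to 9.12. The Golgi and secretory Rabs rab2a (0.07) and rab6a (-0.08) had overlapping pools, while rab6c gave -0.44 with lower AQUOLIVE® pools and no overlap. The Golgi Rabs tested ran from -0.59 to 0.58, none past the threshold. For rab25, an epithelial relative of Rab11, the control pools stood between 10.65 and 10.93, AQUOLIVE® pools 1 and 3 at 8.92 and 9.37, and AQUOLIVE® pool 2 at 10.91. Its log2 FC was -1.08 and did not pass, and AQUOLIVE® pool 2 alone lay with the controls.

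Of the study's own named trafficking genes rab21, rab5b, rap1b, rab9a and vamp2, rab9a was the only one with a probe under that symbol. No Rap GTPase was found among the members.

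Among the Arf and Arl GTPases 11 of 14 were tested, the log2 FC was positive for 9 of them, and the median was 0.35. The only gene past the threshold was arl3b, which was higher, as were 7.74% of all probes. Its product is a relative of the Arl3 GTPase that in mammals releases lipid-modified cargo in the cilium. Its control pools gave 6.91, 6.34 and 5.10 and its AQUOLIVE® pools 7.24, 7.42 and 7.43. The AQUOLIVE® pools were close together and the control pools wide apart, with control pool 3 below background. The log2 FC was 1.24 ± 0.47 (SE, adjusted p = 0.251), and the call held in 8 of 16 alternatives, being lost without control pool 3. The Golgi GTPase arl5a gave 0.69, with control pools from 6.95 to 7.23 and AQUOLIVE® pools from 7.38 to 8.02. The coat-recruiting GTPase arf2b gave 0.06 and was among the brightest members, from 12.42 to 12.72 over the 6 pools. The GTPase arf6a, of the plasma membrane and endosomes, gave 0.36 with overlapping pools. For arf3a the log2 FC was 1.40 and did not pass, with control pool 3 apart: it stood at 3.68 and below background while the other 5 pools lay between 7.53 and 8.53. Of the 5 Arf and Arl partners, none passed, and arl14ep gave the largest value, 0.79.

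The Vps proteins gave 1 higher gene, vps26c, and none lower among 14 tested, beside 7.74% and 6.29% of all probes. Their median was -0.34. No retromer gene passed: vps35, its core subunit, gave a log2 FC of 0.24, and the retromer-associated nexins snx1a, snx2, snx5, snx6 and snx27a gave -0.24, 0.63, -0.25, -0.23 and 0.37. Gene vps13d, a lipid transfer protein, gave 6.58, 6.45 and 6.85 in control pools and 6.08, 6.02 and 5.57 in AQUOLIVE® pools. Its log2 FC of -0.74 was just under the size needed, but it was -0.20 under normexp and -0.20 with the deposited values. The probe was well above background on 2 control and 3 AQUOLIVE® arrays. Gene vps72a gave 0.73, but its product is a chromatin remodeling factor that shares only the name. The HOPS subunits vps41, vps33a and vps11, which tether vesicles to late endosomes and lysosomes, gave -0.41, -0.38 and 0.45. For vps52, of the GARP and EARP tethers, AQUOLIVE® pool 2 stood at 10.20 beside control values of 10.23 to 10.26, and AQUOLIVE® pools 1 and 3 at 9.17 and 9.43. The same pool lay with the controls for rab25.

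The ESCRT machinery, which sorts ubiquitinated cargo into the vesicles of multivesicular bodies, gave no call among 8 genes tested. Of the ESCRT-II subunits vps25 and vps36 the log2 FC was -0.43 and -0.37, and of the ESCRT-I subunit vps37a it was 0.45. The ESCRT-III gene chmp4ba gave 8.96, 9.06 and 9.05 against 9.35, 9.20 and 9.26, a log2 FC of 0.25 with no overlap. Larger values came from the dim genes chmp4c (0.90) and chmp7 (-0.96), each with overlapping pools. None of the 16 sorting nexins tested passed either, and 13 of them lay within 0.5 of 0.

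None of the 15 SNAREs passed the threshold, and their median was 0.03. Gene stx7, a SNARE of late endosomal fusion, came nearest among those brighter with AQUOLIVE®, at 9.50, 9.13 and 9.03 against 10.16, 9.66 and 9.82 (log2 FC 0.66). Gene stx3, of fusion at the plasma membrane, gave 0.56 and the trans-Golgi SNARE stx16 gave -0.46, both without overlap. The vesicle SNAREs vamp3, vamp4 and vamp5 gave 0.13, 0.08 and -0.07. Gene stx11a and its partner stxbp2, which in mammals are needed for granule release by cytotoxic lymphocytes, gave -0.78 and -0.18. For stx11a the control pools gave 11.84, 11.75 and 13.30 and the AQUOLIVE® pools 11.60, 11.50 and 11.44, with control pool 3 far above the other 5. A single pool also stood apart for stx5a and clta, where AQUOLIVE® pool 3 stood at 8.27 and 7.88 and no other pool was above 5.78 and 5.64.

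The exocyst tethers secretory vesicles to the plasma membrane, and the 7 genes tested, exoc3-like genes included, had a median of -0.29. Of 4 core subunits 1 was lower, and of 3 exoc3-like genes 1 was lower, beside 6.29% of all probes. Gene exoc7, whose product binds the plasma membrane for the complex, gave 10.91, 12.08 and 11.87 in control pools and 10.44, 10.68 and 10.62 in AQUOLIVE® pools. Control pool 1 lay near the AQUOLIVE® pools but above all of them. The log2 FC was -1.03 ± 0.34 (SE, adjusted p = 0.216), and the call held in 11 of 17 alternatives. Of the other core subunits, exoc1 gave -0.36 without overlap, exoc5 -0.29 and exoc3 0.01, the last over 5 pools since 1 control spot was an outlier. The exoc3-like gene exoc3l2a gave -0.90 ± 0.35 (SE, adjusted p = 0.262), with 6.22, 5.58 and 6.18 against 4.74, 5.73 and 4.82. Its pools overlapped, and the call held in 4 of 16 alternatives. The probe was above background on 2 control and 2 AQUOLIVE® arrays, and its log2 FC was -0.25 under normexp.

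None of the 12 adaptor subunits and clathrin light chains tested passed. The AP-2 subunit ap2b1, of endocytosis, and the AP-3 subunit ap3b2 gave -0.95 and -0.88. Control pool 3 was the highest pool for both: ap2b1 stood at 11.11 there and at 9.31 and 9.41 in the other control pools, against 8.81, 9.12 and 9.05 with AQUOLIVE®. The other AP-2 subunit measured, ap2m1, gave -0.26. Both AP-4 subunits, of transport from the trans-Golgi network, had positive values, 0.30 for ap4m1 and 0.51 for ap4s1.

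**Figure D3:**
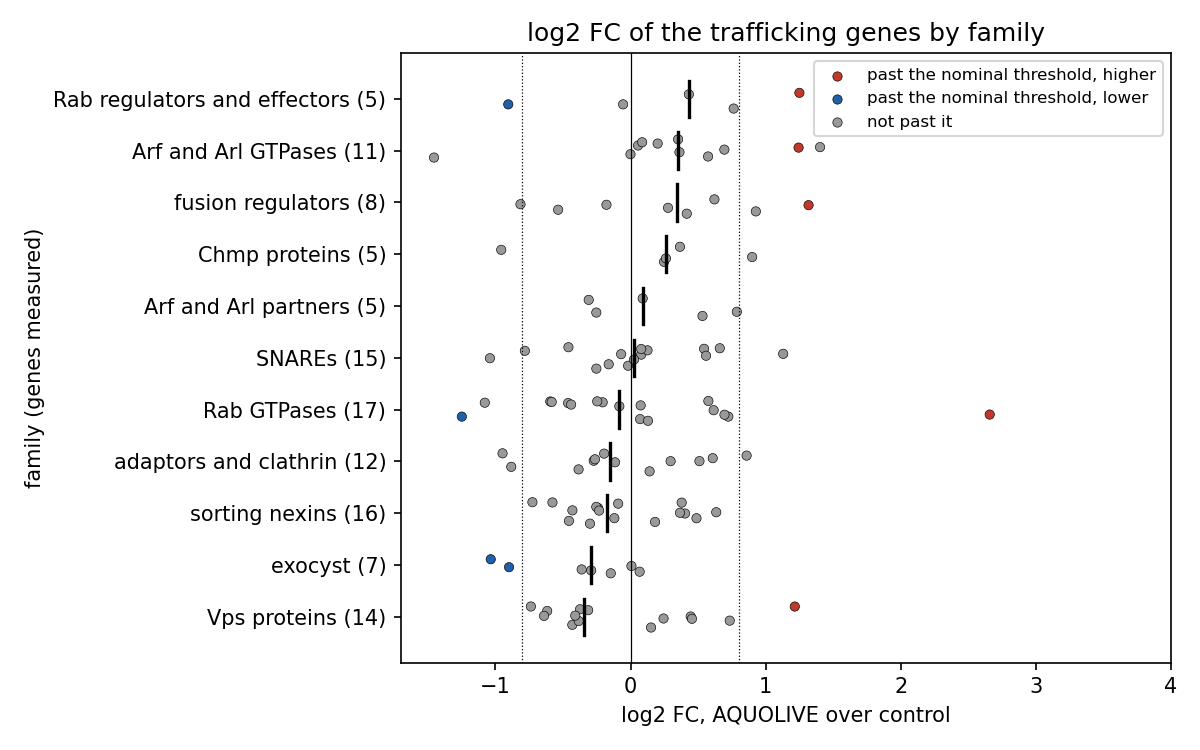
The log2 FC of each of the 115 trafficking genes, AQUOLIVE® over control, is plotted in 11 families with the number of genes measured in parentheses (black bar, family median; dotted lines at -0.8 and 0.8). The 9 colored genes past the nominal threshold are spread over 6 families, and the medians run from -0.34 in the Vps proteins to 0.43 in the Rab regulators and effectors.

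Other genes of the pathway, such as exchange factors, GTPase-activating proteins, coiled-coil tethers and further SNAREs, were read from a list of 159 names, of which 69 had a probe. Of 59 probes tested, 3 were higher (5.08%, beside 7.74% of all probes), 1 lower (1.69%, beside 6.29%) and none passed adjustment, and the median log2 FC was -0.03. Gene mon1bb, known as a partner of Ccz1 in activating Rab7, gave 5.38, 5.16 and 5.79 against 6.39, 6.49 and 6.81 (log2 FC 1.12 ± 0.26, SE, adjusted p = 0.146). Genes rilpl2, a Rab effector of the cilium and lysosome, and gosr2, a Golgi SNARE, were higher by log2 FC of 1.72 and 1.13. Both mon1bb and rilpl2 were above background on 2 control arrays and 3 AQUOLIVE® arrays, so their sizes are not exact. Gene amph, which bends membrane in clathrin-mediated endocytosis, was past the threshold with a lower signal (adjusted p = 0.174), but it was above background on 2 control arrays and 1 AQUOLIVE® array, so the size of its difference is not given. Gene rabggta encodes a subunit of the enzyme that attaches lipid to Rabs. It gave 9.50, 8.56 and 9.68 in control pools, 2.38 and 2.89 in AQUOLIVE® pools 1 and 3 and 9.44 in AQUOLIVE® pool 2. The probe was not well above background in AQUOLIVE® pools 1 and 3, so the size has no exact value, and the difference did not pass.

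The pools differed in ways that touch these values. Control pool 3 had 64.6% of the member probes above background, and the other 5 pools between 70.1% and 87.8%. It was the control pool farthest from the AQUOLIVE® mean for 57.9% of the members, and for 55.9% of all probes. Without it, 9 members passed the nominal threshold (7.83%, beside 10.3% of all probes), 6 of them among the 9 above. Genes arl3b, exoc7 and exoc3l2a were lost, exoc7 with its log2 FC still at -0.90. AQUOLIVE® pool 2 was the pool nearest the control mean for 45.6% of members and 44.5% of all probes. Without it there were 9 lower calls, 7.83% beside 7.63% of all probes, with rab25 and vps52 among them. Without AQUOLIVE® pool 3 there were 3 higher and 2 lower calls, where 5.07% and 3.56% of all probes were called. The control arrays were all scanned before the AQUOLIVE® arrays, each on a slide of its own, and the slope of the spike-in controls was 0.81 to 0.889 on control arrays and 1.05 to 1.08 on AQUOLIVE® arrays, so the order of scanning, the array response and the diet cannot be told apart.

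Markers of the cells an HK sample can hold were read beside the members. In bulk RNA, fewer cells of a type and less RNA per cell cannot be told apart. Erythrocyte markers had positive log2 FC in 9 of 11 tested probes, with a mean level of 9.73 to 10.11 in control pools and 10.26 to 10.33 in AQUOLIVE® pools. Past the nominal threshold were LOC100136576, at 1.50, and the alpha globin hba, at 0.90 over 5 pools. The list means here use only probes with a value in every pool, so that of the erythrocyte markers leaves out hba. Of 7 haematopoietic and myeloid markers 3 had positive and 4 negative values (median -0.10), only csf3r passed, at 1.28, and the list's mean level ran from 11.84 to 12.21 in control pools and 12.13 to 12.29 in AQUOLIVE® pools. Of 13 lymphocyte probes 1 was higher, with means of 8.65 to 9.33 and 9.10 to 9.31. The interrenal genes star and hsd3b1 passed the filter and gave 0.19 and -0.09, each over 5 pools, without a value in AQUOLIVE® pool 2. The chromaffin gene th was lower (-1.34), but only 2 control and 2 AQUOLIVE® arrays had it above background, so that size is not exact. The list means, which leave out the bright genes star and hsd3b1, were 7.33 to 7.53 in control and 7.10 to 7.58 in AQUOLIVE® pools. Of 6 tubule markers tested, 4 had positive values and the median was 0.17, while cdh16 was lower (-1.74). AQUOLIVE® pool 3 stood at 9.64, 9.28 and 8.97 for cdh17, aqp8 and slc22a6l. No other pool was above 6.42, 6.46 and 8.02 for them. For podxl the same pool was the lowest of all, at 3.02. Another 7 tubule genes did not pass the filter, and the list means were 6.19 to 8.02 and 6.09 to 8.31. Called higher were 18.2% of the erythrocyte, 14.3% of the haematopoietic and myeloid and 7.69% of the lymphocyte probes, beside 7.74% of all probes. Called lower were 12.5% of the interrenal and chromaffin and 16.7% of the tubule probes, beside 6.29%. Each of these shares stands for only 1 or 2 probes. The part of these cell types in the trafficking differences was not tested.

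**Figure D4:**
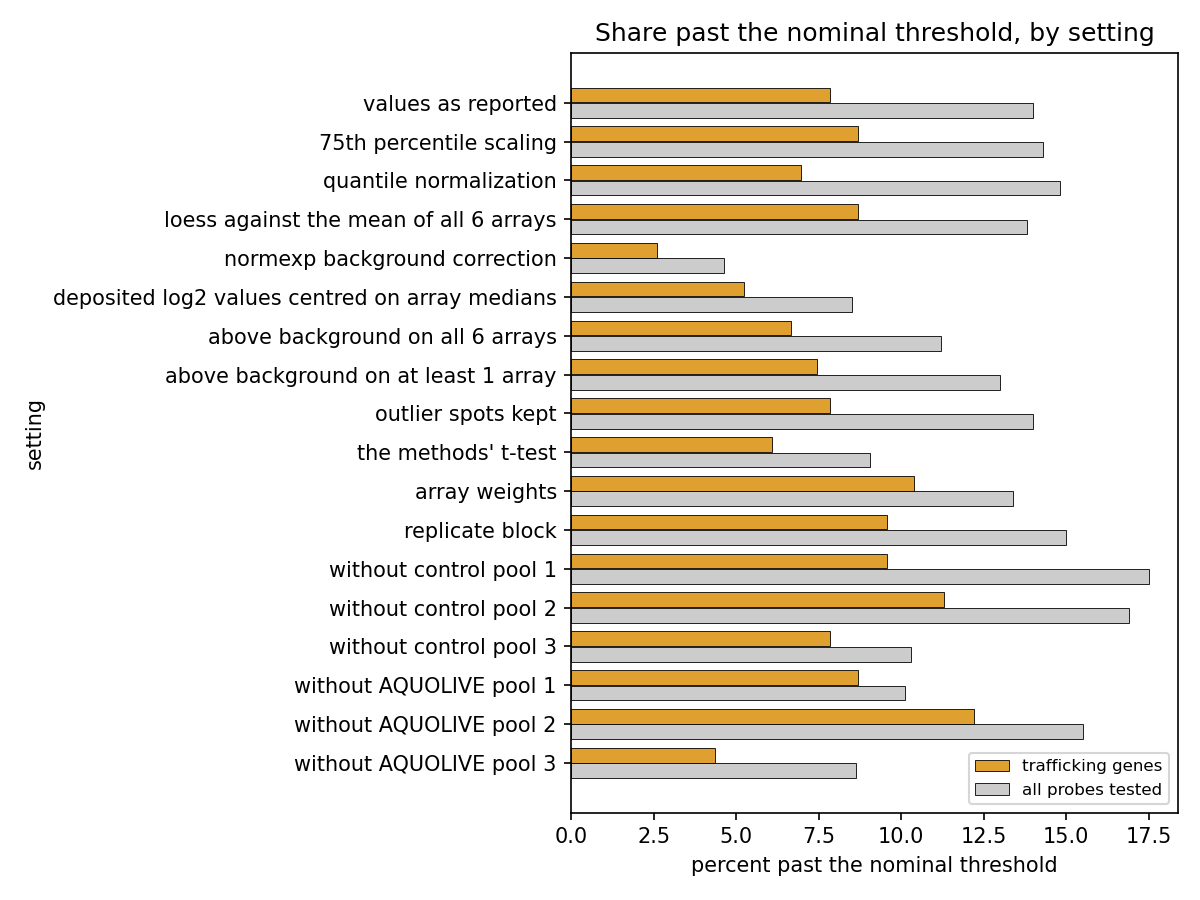
Bars give the percent past the nominal threshold among the trafficking genes (orange) and among all probes tested (gray), for the values as reported and for each of 17 alternatives, named on the vertical axis. The trafficking genes had the lower percent in all 18 settings, which all draw on the same arrays and are not separate evidence. Over the alternatives it ran from 2.61% to 12.2%, beside 4.63% to 17.5% of all probes. All probes were dimmer than the trafficking genes (median log2 signal 7.38 against 9.02), and the difference in share was not tested.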

How the data were processed

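The authors scanned 6 one-color Agilent slides and deposited an intensity for each spot, extracted with Feature Extraction (version 10.7.3.1 per the file headers), with flags that mark outlier spots and spots over background. Also deposited by the authors were log2 values of the background-subtracted signal. The methods' Lowess-normalized ratios and their fold changes and p-values were not used. In R 4.3.3, the log2 of the processed signal of each array was set against the mean of the control arrays by robust loess (span 0.3, 4 iterations). Control spots were left out, outlier spots became missing values, and a probe was kept if 3 or more of the 6 arrays had it over background. The diets entered a two-sided limma 3.58.1 model (lmFit, eBayes), with Benjamini-Hochberg adjustment over all 25826 probes. The script was tested on simulated data. Precision is limited by the number of arrays, and with 3 pools a diet an exact permutation test cannot give a p under 0.1.

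The members and gene lists were chosen with earlier results of these data known. The rule for named genes took those past the nominal threshold without overlap between diets. Others, exoc3l2a and further genes given with every pool included, were named by role after their values were seen, and so were the groups by complex. The list of trafficking genes without a symbol could not be applied, since the gene table used here (RefSeq names) gives no descriptions. Alternatives covered scaling, background, deposited log2 values, filters, outlier spots, test, array weights, replicate block and each array left out; normexp (offset 50) used the median signal.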

Additional observations from a re-analysis of the deposited data

How the results depend on the processing

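No member passed an adjusted p of 0.05 in limma under any of the 17 alternatives (count 0 in each, leaving out any 1 array included; smallest adjusted p 0.0683). The 5 higher and 4 lower calls became 2 and 1 under normexp background correction (3.75% and 0.887% of all probes). Under array weights 8 were higher (7.59% of all probes). Among the 90 members above background on all 6 arrays 2 were lower (4.66% of all probes so filtered). With the deposited log2 values 1 was lower (1.17% of all probes). The median log2 FC of 0.03 was 0.10 with the deposited values (0.19 for all probes). Among those 90 members it was 0.086 with the loess refitted on the probes so filtered. In the fit as reported, the same 90 had a median of 0.016. With each array left out in turn, there were 3 to 8 higher calls, 2 to 9 lower calls and a median of -0.039 to 0.047. Without control pool 1 there were 8 higher (10.1% of all probes), and without AQUOLIVE® pool 2 there were 9 lower (7.63% of all probes). Without AQUOLIVE® pool 3 there were 3 higher and 2 lower (5.07% and 3.56% of all probes). The cause of these shifts was not tested, beyond the fewer arrays or probes in them. The deviations of pools of the same number had correlations of 0.21 for pools 1, -0.06 for pools 2 and 0.03 for pools 3, over 25230 probes. A fit with the replicate block gave 6 higher and 5 lower (8.57% and 6.4% of all probes), 0 adjusted and a median of 0.06. Of 284 recomputed values of the 17 genes with a limma unadjusted p under 0.05, 237 kept their direction and side of the threshold. Another 34 fell below it, 13 newly passed and 0 reversed. The 237 include values of genes that were not past the threshold and stayed below it. All 34 that fell below it were from the 9 genes past it, mainly exoc3l2a, arl3b and exoc7. Dim probes such as rab26 and rab9a are limited by signal over background.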
